A study of Mus musculus with 26 samples.

Results

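The genes described here are 9 genes that mark the primitive endoderm, namely Gata4, Gata6, Sox17, Sox7, Foxa2, Pdgfra, Dab2, Lama1 and Lamb1. They were taken by symbol from a table of 55291 genes, and all 9 were among the 20953 genes that passed the filter on low counts and were tested. Their levels were read in 26 poly(A) RNA-seq libraries of mouse R1 ESCs, a line of embryonic stem cells grown with LIF, in 13 groups of 2 replicates.

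The primitive endoderm is the layer of the blastocyst that separates from the pluripotent epiblast under FGF signalling and later gives rise to the visceral and parietal endoderm of the yolk sacs. GATA6 stands at the head of its programme, GATA4, SOX17 and SOX7 follow, and the cells carry the receptor PDGFRA, sort their surface cargo with the adaptor DAB2 and lay down a basement membrane of laminin. In ESC cultures these genes are mostly low, and retinoic acid in the presence of LIF is known to raise several of them.

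The wild-type groups were untreated cells (ESC), cells with the solvent DMSO, cells with retinoic acid (RA, 0.53 µM for 48 h), cells with the splicing inhibitor pladienolide B (PlaB, 4 nM for 4 days), and cells in which doxycycline (4 µg/mL for 24 h) switched on Dux (Dux OE), its R70A mutant (Dux R70A OE) or Zscan4 (Zscan4 OE). Dux is a transcription factor of the 2-cell embryo, and Zscan4 is one of its target genes. Dux knockdown cells (Dux KD) were measured with RA, with PlaB or, by their title, with Zscan4 OE. For the libraries labelled Dux KD Zscan4 OE the labels give neither doxycycline nor a time. Cells in which a super-enhancer at the Tdpoz genes was removed with CRISPR-Cas9 (SE KO) were measured with RA, with PlaB or with Dux OE for 24 h. No Dux KD or SE KO library without an inducer was analysed here, so a difference that a line already had at rest and a difference in its response cannot be told apart. The labels do not say whether replicates came from separate cultures, so the p-values measure only the spread between these libraries, nor whether the lines were single clones. The duration of DMSO is not given in the sources used here, RA and PlaB differ in duration, and 1 SE KO RA library (replicate 1) carries SE KO in its title but WT in its genotype label.

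Library totals ranged from 14401452 to 39402840 counts, and the SE KO Dux OE pair was the deepest. Levels are given as CPM, the counts scaled to the TMM-adjusted size of the library, with replicate 1 before replicate 2. A library with at most 3 counts of a gene is treated as at the floor, and floors and intervals cover counting error only. Duxf3, the gene entry that holds Dux, had 191 and 181 counts in PlaB against 1 and 0 in Dux KD PlaB, 49 and 59 in RA against 16 and 6 in Dux KD RA, and 27 and 17 in Zscan4 OE against 1 and 0 in Dux KD Zscan4 OE. The knockdown libraries were thus lower in all 3 pairs. Duxf3 was as low without an inducer, with a mean of 0.0284 CPM in DMSO and 0.0295 CPM in Dux KD PlaB. Dux KD RA, at 0.636 CPM, lay above DMSO and below RA, at 2.45 CPM. In the PlaB and Zscan4 pairs, knockdown and absent induction thus cannot be told apart by this entry. Duxf3 had 55 and 48 counts in Dux OE, 3 and 0 in ESC, and 0 and 0 in Dux R70A OE. This entry thus does not check the mutant transgene, and whether the mutant was expressed was not checked. Reads of the transgene and of endogenous Dux cannot be told apart in Dux OE. Zscan4c had 5.73 and 6.13 CPM in ESC, 99.98 and 103 CPM in Zscan4 OE, and 0.779 and 1.13 CPM in the libraries labelled Dux KD Zscan4 OE. Zscan4 induction was thus not seen in these libraries, which lay below ESC, and Dux KD Zscan4 OE is used only as the name on their label. The deleted enhancer is no gene of the table and was not checked. Fewer cells of a type and less RNA per cell cannot be told apart in such bulk libraries.

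The promoters of 4 of the 9 genes (Foxa2, Pdgfra, Dab2 and Lamb1) were matched in a RefSeq table on GRCm38.p6, as 7 windows of 250 bases before an annotated start. They were searched for AGATAA or TGATAA on both strands, letters that GATA factors such as GATA4 and GATA6 are known to read, with overlapping matches counted. Of the 7 windows 2 held a match, as did 16.6% of all 32851 windows of that length that the table holds. The 2 windows with a match and the single window of Pdgfra, which had none, are printed 5′ to 3′ with the matched letters in capitals, because all 3 genes were called after RA. The Foxa2 window (chr2:148045465-148045714, minus strand) lies inside the gene and outside its annotated exons, and its match begins 183 bases before the start. The Dab2 window (chr15:6299539-6299788, plus strand) ends at the first base of the gene, and its match begins 179 bases before the start. The Pdgfra window (chr5:75152001-75152250, plus strand) lies before the gene. A match is a description of these letters and does not show binding.
Foxa2: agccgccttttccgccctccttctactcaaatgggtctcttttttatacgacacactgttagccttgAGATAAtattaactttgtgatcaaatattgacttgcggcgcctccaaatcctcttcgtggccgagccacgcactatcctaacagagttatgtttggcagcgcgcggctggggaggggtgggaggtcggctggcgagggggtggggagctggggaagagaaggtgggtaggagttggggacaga
Dab2: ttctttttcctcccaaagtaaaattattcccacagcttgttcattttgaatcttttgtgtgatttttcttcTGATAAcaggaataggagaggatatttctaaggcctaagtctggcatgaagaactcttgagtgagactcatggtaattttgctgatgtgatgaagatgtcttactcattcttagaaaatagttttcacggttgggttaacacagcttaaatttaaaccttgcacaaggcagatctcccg
Pdgfra: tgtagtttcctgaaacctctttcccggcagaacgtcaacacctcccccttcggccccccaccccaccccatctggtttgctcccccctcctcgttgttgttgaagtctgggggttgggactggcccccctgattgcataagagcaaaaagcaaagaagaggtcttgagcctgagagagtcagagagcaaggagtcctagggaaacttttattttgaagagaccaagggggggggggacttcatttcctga

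In untreated ESC the 9 genes differed widely in level per length of exon. The laminin chains were the most abundant, Lama1 with 7.70 CPM per kb and Lamb1 with 4.54 CPM per kb. Gata4 (0.389 CPM per kb), Dab2 (0.347 CPM per kb), Sox7 (0.272 CPM per kb) and Gata6 (0.132 CPM per kb) followed. Foxa2, Pdgfra and Sox17 had the lowest values, at 0.0957, 0.0929 and 0.0489 CPM per kb. The transcription factors, the receptor and the adaptor thus had at most 40 counts per ESC library, while each laminin had at least 687.

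Across the 13 groups, the highest mean level lay in a group with RA or PlaB for all 9 genes. Dux KD RA was highest for 5 of them (Gata4, Sox17, Sox7, Pdgfra and Lama1), SE KO PlaB for Gata6 and Dab2, RA for Foxa2 and SE KO RA for Lamb1. The share of all tested genes with their highest mean in these groups was not computed. Both compounds moved many genes, with 31% of all tested genes called in RA against DMSO and 58.9% in PlaB against DMSO. The highest group mean was 6.33 times the lowest for Lamb1 and 90.6 times the lowest for Gata6, the ends of the range over the 8 genes that had a lowest mean above 0.

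**Figure D1:**
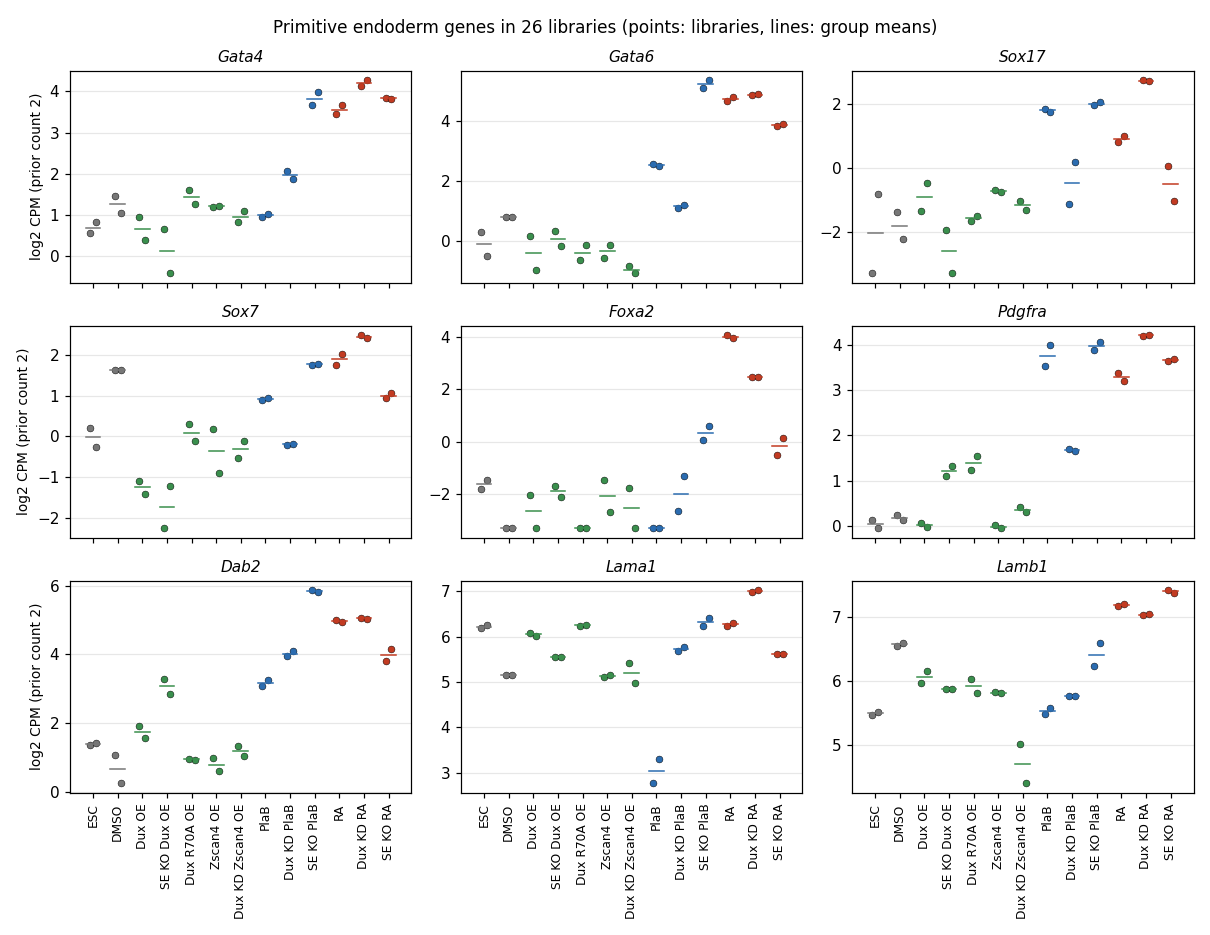
Levels of the 9 primitive endoderm genes as log2 CPM (prior count of 2) in each of the 26 libraries, one panel per gene, with the 13 groups on the horizontal axis. Points are libraries, lines are group means, grey marks ESC and DMSO, green the overexpression groups, blue PlaB and red RA. Gata4, Gata6, Pdgfra and Dab2 stand high in RA, Dux KD RA, SE KO RA and SE KO PlaB, Foxa2 is high in RA and Dux KD RA, and Lama1 is low in PlaB.

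Gata6 (chr18:11052064-11085635, plus strand), the factor that starts the programme, had 1.12 and 0.600 CPM in ESC and 1.65 and 1.65 CPM in DMSO. It had 25.5 and 28.2 CPM in RA, 29.1 and 29.7 CPM in Dux KD RA, and 14.4 and 14.8 CPM in SE KO RA. It had 5.91 and 5.54 CPM in PlaB, 2.06 and 2.21 CPM in Dux KD PlaB, and 34.2 and 41.1 CPM in SE KO PlaB. SE KO PlaB was thus the highest group and every RA or PlaB library lay above every library of the other groups. The libraries of Dux OE, SE KO Dux OE, Dux R70A OE, Zscan4 OE and Dux KD Zscan4 OE lay between 0.376 and 1.17 CPM. Of the 12 pairs of neighbours in the order of Gata6 levels, 4 overlapped, all of them among ESC and the groups with Dux, Dux R70A or Zscan4.

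Gata4 (chr14:63198922-63271692, minus strand), a partner GATA factor, had 1.37 and 1.67 CPM in ESC, 2.67 and 1.97 CPM in DMSO and 1.84 and 1.95 CPM in PlaB. It had 10.8 and 12.7 CPM in RA, 17.3 and 19.1 CPM in Dux KD RA, and 14.3 and 14.0 CPM in SE KO RA. It had 4.13 and 3.59 CPM in Dux KD PlaB and 12.5 and 15.6 CPM in SE KO PlaB. The 3 RA groups and SE KO PlaB stood above all others, SE KO PlaB overlapped its neighbours RA and SE KO RA, and Dux KD PlaB lay alone between these and the rest. The Dux OE, SE KO Dux OE, Dux R70A OE, Zscan4 OE and Dux KD Zscan4 OE libraries spanned 0.654 to 2.95 CPM, and of the 12 neighbour pairs in the order of Gata4 levels 8 overlapped.

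Sox17 (chr1:4490931-4497354, minus strand), an SRY-box factor of the endoderm, had 0 and 7 counts in ESC and 5 and 2 counts in DMSO. It had 1.63 and 1.86 CPM in RA, 6.49 and 6.36 CPM in Dux KD RA, and 0.931 and 0.381 CPM in SE KO RA. It had 3.49 and 3.22 CPM in PlaB, 0.354 and 1.02 CPM in Dux KD PlaB, and 3.77 and 4.01 CPM in SE KO PlaB. Dux KD RA, SE KO PlaB, PlaB and RA formed 4 steps with no overlap between them, and the 8 neighbour pairs below RA, from Dux KD PlaB down to SE KO Dux OE, all overlapped.

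Sox7 (chr14:63943673-63950732, plus strand), a related factor of the later primitive endoderm, had a DMSO level just below its RA level. It had 1.06 and 0.733 CPM in ESC, 3.01 and 3.02 CPM in DMSO, and 3.30 and 4.01 CPM in RA. It had 5.51 and 5.24 CPM in Dux KD RA, 1.81 and 1.99 CPM in SE KO RA, and 1.74 and 1.82 CPM in PlaB. The low end was in Dux OE with 0.365 and 0.270 CPM and SE KO Dux OE with 0.106 and 0.327 CPM, which overlapped. Dux KD PlaB had 0.767 and 0.778 CPM, SE KO PlaB had 3.30 and 3.36 CPM, and the remaining groups lay between 0.435 and 1.13 CPM. Of the 12 neighbour pairs in the order of Sox7 levels 7 overlapped.

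Foxa2 (chr2:148042877-148046969, minus strand), a forkhead factor of the visceral endoderm and of the later definitive endoderm, had the most switch-like pattern. It had 375 and 332 counts in RA (16.5 and 15.5 CPM), 94 and 92 counts in Dux KD RA (5.40 and 5.42 CPM), and 13 and 24 counts in SE KO RA (0.605 and 1.02 CPM). It had 22 and 30 counts in SE KO PlaB (0.954 and 1.40 CPM), which overlapped SE KO RA. It had 0 counts in both libraries of DMSO, PlaB and Dux R70A OE. Dux OE with 2 and 0 counts and Dux KD Zscan4 OE with 3 and 0 counts were also at the floor, making 5 groups there. The other groups had 3 and 4 counts (ESC), 1 and 5 counts (Dux KD PlaB), 8 and 4 counts (SE KO Dux OE), and 4 and 1 counts (Zscan4 OE).

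Pdgfra (chr5:75152292-75198215, plus strand), the receptor that marks primitive endoderm cells at their surface, had 0.997 and 0.866 CPM in ESC and 1.08 and 0.987 CPM in DMSO. It had 10.3 and 9.08 CPM in RA, 18.4 and 18.4 CPM in Dux KD RA, and 12.4 and 12.9 CPM in SE KO RA. It had 11.5 and 15.8 CPM in PlaB, 3.13 and 3.05 CPM in Dux KD PlaB, and 14.7 and 16.6 CPM in SE KO PlaB. The wild-type PlaB libraries overlapped both SE KO PlaB and SE KO RA, and only Dux KD PlaB was low among the groups with an inducer compound. Dux R70A OE (2.26 and 2.83 CPM) and SE KO Dux OE (2.04 and 2.42 CPM) overlapped each other and lay above Dux OE (0.948 and 0.879 CPM). Zscan4 OE had 0.906 and 0.869 CPM of Pdgfra and Dux KD Zscan4 OE had 1.23 and 1.13 CPM.

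Dab2 (chr15:6299788-6440712, plus strand), the endocytic adaptor, had 2.49 and 2.60 CPM in ESC and 1.99 and 1.10 CPM in DMSO. It had 31.7 and 30.7 CPM in RA, 33.4 and 32.4 CPM in Dux KD RA, and 13.9 and 17.8 CPM in SE KO RA. It had 8.33 and 9.53 CPM in PlaB, 15.4 and 17.0 CPM in Dux KD PlaB, and 58.1 and 55.7 CPM in SE KO PlaB. All groups with RA or PlaB lay above ESC and DMSO, and Dux KD PlaB, unlike for Gata6, Sox17, Sox7 and Pdgfra, lay above PlaB. Among the overexpression groups SE KO Dux OE was highest with 9.72 and 7.07 CPM, against 3.65 and 2.84 CPM in Dux OE, and Dux R70A OE, Zscan4 OE and Dux KD Zscan4 OE lay between 1.41 and 2.40 CPM.

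Lama1 (chr17:67697259-67822647, plus strand), the α1 chain of laminin-111, had 72.8 and 76.3 CPM in ESC and 35.8 and 35.5 CPM in DMSO. It had 75.1 and 79.1 CPM in RA, 128 and 129.9 CPM in Dux KD RA, and 48.7 and 48.7 CPM in SE KO RA. It had 6.73 and 9.76 CPM in PlaB, 51.2 and 54.6 CPM in Dux KD PlaB, and 75.7 and 85.3 CPM in SE KO PlaB. The RA libraries overlapped those of SE KO PlaB and of Dux R70A OE (75.4 and 76.5 CPM), PlaB stood alone at the bottom and Dux KD RA alone at the top. Zscan4 OE (34.2 and 35.6 CPM) and Dux KD Zscan4 OE (42.6 and 31.4 CPM) each overlapped DMSO, Dux OE had 68.0 and 65.0 CPM, and SE KO Dux OE had 47.0 CPM in both libraries.

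Lamb1 (chr12:31265234-31329644, plus strand), the β1 chain of the same trimer, had 44.3 and 45.8 CPM in ESC and 93.9 and 96.7 CPM in DMSO. It had 144 and 148 CPM in RA, 130.4 and 132 CPM in Dux KD RA, and 171 and 167 CPM in SE KO RA. It had 44.6 and 47.6 CPM in PlaB, 54.1 and 54.2 CPM in Dux KD PlaB, and 74.8 and 96.4 CPM in SE KO PlaB. The 3 RA groups were the highest and did not overlap each other, while PlaB overlapped ESC and SE KO PlaB overlapped DMSO. Dux OE (62.8 and 71.1 CPM), Dux R70A OE (65.4 and 56.4 CPM), SE KO Dux OE (58.9 and 58.4 CPM) and Zscan4 OE (56.7 and 56.2 CPM) lay above ESC. Dux KD Zscan4 OE was the lowest group with 32.1 and 21.2 CPM of Lamb1.

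To see how RA changed the programme, RA was compared with DMSO. Of the 9 genes 7 rose and none fell, where a call needs an adjusted p under 0.05 and a log2 fold change of at least 1 in edgeR's quasi-likelihood test, and 31% of all tested genes were called in this comparison (20.6% higher and 10.4% lower). The adaptor Dab2 rose 20.3-fold (log2 fold change 4.34 ± 0.20 SE, edgeR adjusted p 8.4e-16) and Gata6 rose 16.3-fold (4.02 ± 0.20, adjusted p 3.1e-15). Pdgfra rose 9.35-fold (3.22 ± 0.21, adjusted p 7.7e-13). Both libraries of each RA value lay above both DMSO libraries, and the receptor and the adaptor moved with the GATA factors.

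Sox17 rose 8.68-fold in RA, on 5 and 2 counts in DMSO (log2 fold change 3.12 ± 0.65 SE, edgeR adjusted p 0.00016). Gata4 rose 5.05-fold (2.34 ± 0.23, adjusted p 1.7e-09). Foxa2, at 0 counts in both DMSO libraries, was at least 95.6-fold higher against the floor of 3 counts per library (adjusted p 4.8e-12). Sox7 was not called, at 0.28 ± 0.27 (adjusted p 0.40). Lama1 rose 2.16-fold (1.11 ± 0.11, adjusted p 2.7e-09), and Lamb1, at 0.62 ± 0.12 (adjusted p 4.7e-05), stayed below the fold needed for a call. The control mattered for 3 of these genes. Against ESC in place of DMSO, Sox7 was at 2.01 and Lamb1 at 1.70, both called, and Lama1 was at 0.05 and not called.

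The genes around the programme were read from fixed lists in the same comparison. Of 8 basement membrane genes 4 rose and none fell, with a median log2 fold change of 1.15 against 0.10 over all tested genes. The type IV collagen chains Col4a1 (2.37) and Col4a2 (2.72) were the examples with the smallest adjusted p. All 5 parietal endoderm genes rose (median 1.88), among them Plat (4.25), which encodes tissue plasminogen activator, and the activin antagonist Fst (3.37).

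Of 11 tested visceral endoderm genes 6 rose and 2 fell (median 1.23). Foxa1, a forkhead relative of Foxa2, was at 5.95 and Cubn, the endocytic receptor cubilin, at 4.19. Apoe, a lipid carrier with the highest level of the list, fell by 1.70, from a mean of 210.4 CPM to 64.8 CPM. With Apoe the list summed to 141 to 151 CPM in RA against 222 to 230 CPM in DMSO, and without it to 78.2 to 84.1 CPM against 15.2 to 16.0 CPM, the opposite direction. Of 9 FGF and MAPK genes 1 rose and 6 fell (median -1.17), including the MAPK inhibitor Spry4 (-4.78) and Fgf4 (-2.94), the ligand that the epiblast sends to the primitive endoderm. Of 8 pluripotency genes of the epiblast none rose and 5 fell (median -1.11), with Zfp42 at -1.48 and Pou5f1 at -1.46.

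Markers of other cell types moved too. All 6 retinoic acid response genes rose (median 6.28, with Stra6 at 6.92 and Cyp26a1 at 7.82), as did all 6 two-cell genes. Of 7 trophectoderm genes 4 rose (summed level 107 to 117 CPM in RA, 98.3 to 99.6 CPM in DMSO). Most of the DMSO sum was Tfap2c, which was not called (mean 54.3 CPM in RA, 81.9 CPM in DMSO). Those that rose were Gata3 (at least 8.63-fold against the floor), Krt7 (log2 fold change 1.83), Krt8 (1.78) and Krt18 (1.70). Of 6 fibroblast genes 3 rose (57.3 to 64.6 CPM against 36.1 to 37.3 CPM, with Col3a1 and Dcn at 0 in DMSO). Most of this DMSO sum was Thy1, which was not called (mean 32.4 CPM in RA, 31.8 CPM in DMSO). The fibroblast genes that rose were Col1a2 (15.1 CPM against 0.0567 CPM), Col1a1 (8.32 CPM against 2.68 CPM) and Snai2 (2.42 CPM against 0.363 CPM). None of 6 mesendoderm genes was called (24.5 to 25.9 CPM against 27.9 to 28.1 CPM, Cer1 at 0 in all 4 libraries), nor any of 5 neural genes (144 to 153 CPM against 143 to 156 CPM). Their part in the levels of the 9 genes was not tested.

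PlaB was compared with the same DMSO libraries. Of the 9 genes 4 rose and 2 fell, while 58.9% of all tested genes were called (32.3% higher and 26.6% lower), so calls were common among all genes too. Sox17 rose 16.7-fold (log2 fold change 4.06 ± 0.60 SE, edgeR adjusted p 9e-07) and Pdgfra rose 13.2-fold (3.72 ± 0.21, adjusted p 4.2e-15). Dab2 rose 5.80-fold (2.54 ± 0.22, adjusted p 5.6e-11) and Gata6 rose 3.47-fold (1.79 ± 0.23, adjusted p 6e-08). The laminins went the other way from the receptor and the adaptor. Lama1 fell by 2.11 on the log2 scale (SE 0.13, adjusted p 4.1e-14) and Lamb1 fell by 1.05 (SE 0.12, adjusted p 9.4e-09).

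Gata4 (-0.29 ± 0.28, adjusted p 0.35) and Sox7 (-0.76 ± 0.30, adjusted p 0.023) were not called in PlaB against DMSO, and Foxa2 was at 0 counts in all 4 libraries. The call of Lamb1 depended on the scaling, at -0.90 with RLE size factors, -0.79 with library sizes alone and -0.90 with DESeq2. Against ESC, Lamb1 was at 0.033 and Sox7 at 0.98, each with the opposite sign, so the direction of both in PlaB rests on the choice of control.

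The laminin chains had company in PlaB. Of the 8 basement membrane genes 7 fell and none rose (median -2.59, against 0.22 over all genes), among them Lamc1 (-3.84), the γ1 chain that completes laminin-111, and the linker Nid2 (-2.46). Of the 11 visceral endoderm genes 9 rose and none fell (median 1.62), with Apoe at 1.14 and Cubn at 2.74, and of 5 parietal endoderm genes 2 rose. FGF and MAPK genes fell in 6 of 9 cases and rose in 2, with Fgf4 at -5.77 and the ETS factor Etv4 at -3.66. Of the 8 epiblast genes 6 fell (median -2.94, with Nanog at -3.62 and Esrrb at -3.65).

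Trophectoderm markers moved in PlaB as well, 6 of 7 up and 1 down, with the keratins Krt8 at 4.94 and Krt18 at 4.35. Their summed level was 469 to 493 CPM against 98.3 to 99.6 CPM in DMSO. Most of the sum in PlaB was Krt8 (mean 302 CPM) and Krt18 (mean 131 CPM). Tfap2c, the gene that fell, had a mean of 32.7 CPM in PlaB against 81.9 CPM in DMSO. The two-cell genes summed to 7180 to 7246 CPM in PlaB against 3.02 to 5.05 CPM in DMSO. Of 6 fibroblast genes 2 rose (Col1a2 and Col3a1) and 2 fell (Thy1 and Twist1). Their sum was 10.5 to 13.4 CPM in PlaB and 36.1 to 37.3 CPM in DMSO, but without Thy1 it was 4.41 to 6.35 CPM against 4.44 to 5.45 CPM. Of 5 neural genes 2 fell, as did 2 of 6 mesendoderm genes, and none of either list rose. The part of these cells or states in the members' levels was not tested.

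**Figure D2:**
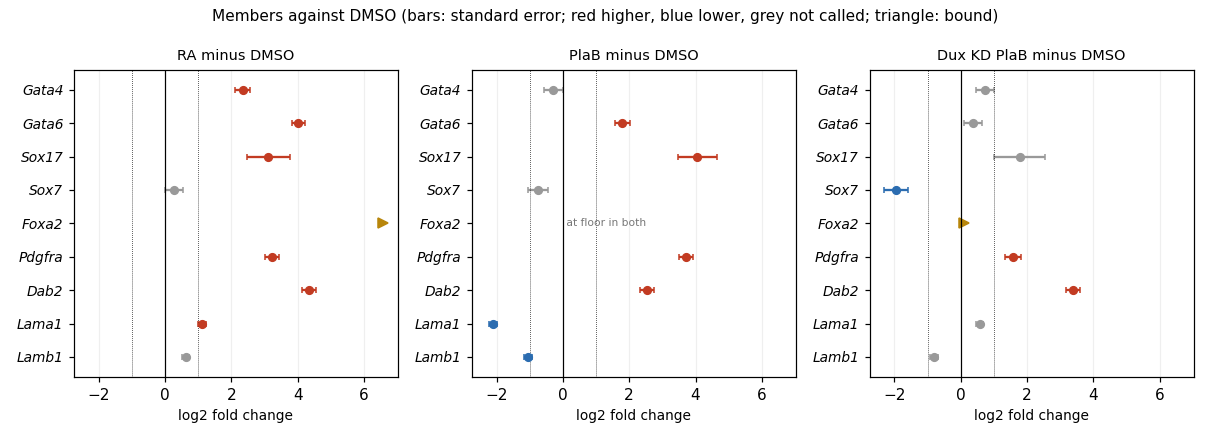
Log2 fold changes of the 9 primitive endoderm genes against DMSO in RA, PlaB and Dux KD PlaB, with bars for the standard error of the edgeR fit (2 libraries per group). Red and blue points are called higher and lower, grey points are not called, dotted lines mark a log2 fold change of 1 and -1, and triangles are lower bounds against a floor of 3 counts. In RA 7 genes are called higher, and in PlaB 4 are called higher and both laminins lower.

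Since RA and PlaB share their DMSO libraries, they were also set against each other directly, although they differ in time as well as in compound. No member was called higher in PlaB and 7 were called lower, with 57.9% of all tested genes called (27.9% higher and 30% lower). Lama1 fell by 3.22 (SE 0.13, edgeR adjusted p 2.5e-18), Gata4 fell by 2.62 (SE 0.23) and Gata6 fell by 2.23 (SE 0.17). Foxa2 was at least 114-fold lower in PlaB. Dab2 fell by 1.80, Lamb1 by 1.66 and Sox7 by 1.03. Sox17 (0.94 ± 0.41, adjusted p 0.039) and Pdgfra (0.49 ± 0.15, adjusted p 0.0048) were higher in PlaB by less than the fold required. The calls near that fold moved with the scaling, since Sox7 was not called with RLE (-0.91), library sizes alone (-0.97) or DESeq2 (-0.91), and Sox17 was called with each of them (1.07 with RLE and with DESeq2). Sox7 also lost its call without RA replicate 2 (-0.92).

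The overexpression groups were compared with untreated ESC, which they share as control. The labels give doxycycline for these groups and none for ESC. No library with doxycycline alone or of an uninduced overexpression line was analysed here. Effects of the transgene, of doxycycline and of the line thus cannot be told apart in the comparisons with ESC. In Dux OE 1 member, Sox7, was called (log2 fold change -1.49 ± 0.52 SE, edgeR adjusted p 0.033) against 9.51% of all tested genes (7.38% higher and 2.12% lower). That call rested on 5 and 4 counts in Dux OE and was absent with DESeq2 (adjusted p 0.058) and when ESC replicate 1 or either Dux OE library was left out. Gata4 (0.00 ± 0.35), Gata6 (-0.30 ± 0.41), Pdgfra (-0.03 ± 0.34) and Dab2 (0.34 ± 0.25) were not called. All 6 two-cell genes rose in the same comparison, and the list includes Duxf3, the entry that holds the induced gene Dux. Gata4 and Pdgfra had 13 to 25 counts per library in both groups, so small differences of these genes were not detectable at this depth. Sox17 was called higher in Dux OE and in Zscan4 OE only without ESC replicate 2, which left a single ESC library with 0 counts.

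In Dux R70A OE against ESC 16.9% of all tested genes were called (10.2% higher and 6.72% lower), and of the members Pdgfra rose 2.70-fold (log2 fold change 1.43 ± 0.27 SE, edgeR adjusted p 9e-05). Foxa2 was called lower on 0 and 0 counts against 3 and 4 in ESC, and lost the call when ESC replicate 2 or either Dux R70A OE library was left out. In Zscan4 OE 11.6% of all genes were called (7.25% higher and 4.39% lower), and of the members only Lama1, which fell by 1.09 (SE 0.11, adjusted p 2.8e-08). This call was absent with library sizes alone (-0.94) and against DMSO (-0.03). Set directly against Dux OE, Dux R70A OE had higher Pdgfra (1.46 ± 0.28, adjusted p 0.00013) and higher Sox7 (1.61 ± 0.51, adjusted p 0.012), with 13.6% of all genes called (6.11% higher and 7.51% lower). Gata4 (0.81 ± 0.31), Dab2 (-0.82 ± 0.26) and the other 5 members were not called there, although Gata4 was without Dux OE replicate 1 (1.14). The call of Sox7 was absent without Dux R70A OE replicate 1 (1.35, adjusted p 0.11) or without Dux OE replicate 2 (1.44, adjusted p 0.10).

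The controls themselves differed. In DMSO against ESC 16.2% of all tested genes were called (8.32% higher and 7.91% lower), and 4 of the 9 members. Sox7 rose by 1.74 (SE 0.34, edgeR adjusted p 0.00016), Lamb1 rose by 1.08 (SE 0.12, adjusted p 4.6e-08) and Lama1 fell by 1.06 (SE 0.11, adjusted p 2e-08). Foxa2 had 3 and 4 counts in ESC and 0 in both DMSO libraries, a call that was absent when ESC replicate 2 or either DMSO library was left out. Gata6 (0.92 ± 0.33) and Dab2 (-0.73 ± 0.28) were not called, but Gata6 was called without ESC replicate 1 (1.46) and Dab2 without DMSO replicate 1 (-1.20).

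Dux knockdown was compared within each inducer. With RA, 10.9% of all tested genes were called (6.41% higher and 4.53% lower) and 2 of the 9 members, in opposite directions. Sox17 rose 3.67-fold in Dux KD RA (log2 fold change 1.88 ± 0.40 SE, edgeR adjusted p 0.00049) and Foxa2 fell by 1.56 (SE 0.29, adjusted p 0.00016). Pdgfra (0.92 ± 0.15), Lama1 (0.74 ± 0.11) and Gata4 (0.64 ± 0.19) were higher by less than the fold required, with adjusted p of 2.4e-05, 4.7e-06 and 0.0087, and Pdgfra was called without RA replicate 1 (1.02). Gata6 (0.13 ± 0.15), Dab2 (0.08 ± 0.14), Lamb1 (-0.15 ± 0.11) and Sox7 (0.56 ± 0.26) were not called. Of the 8 basement membrane genes 4 fell (median -0.91), among them Col4a1 (-1.22) and the collagen chaperone Serpinh1 (-1.07), while Lama1 lay above its RA level. Of the visceral endoderm genes 2 rose and 2 fell, with Cubn at 2.14 and Foxa1, like Foxa2, lower at -1.74. Of 5 parietal endoderm genes 2 fell, and of 7 trophectoderm genes 2 rose. The two-cell genes summed to 348 to 363 CPM in Dux KD RA and 466 to 536 CPM in RA, and their part in the members' levels was not tested.

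Dux KD PlaB differed from PlaB in 54.9% of all tested genes (26.1% higher and 28.8% lower) and in 7 of the 9 members, 3 higher and 4 lower. Lama1 rose 6.39-fold (log2 fold change 2.68 ± 0.13 SE, edgeR adjusted p 2.1e-16). Pdgfra fell by 2.14 (SE 0.18, adjusted p 1.9e-11), Sox17 fell by 2.28 (SE 0.49, adjusted p 0.00015), Gata6 fell by 1.42 (SE 0.22, adjusted p 1.8e-06) and Sox7 fell by 1.20 (SE 0.36, adjusted p 0.0045). Gata4 rose by 1.02 (SE 0.26, adjusted p 0.0010), less with RLE, library sizes alone or DESeq2 (0.87, 0.82 and 0.87), where it was not called, nor was it without Dux KD PlaB replicate 1 (0.95). Foxa2 was called higher on 1 and 5 counts against 0 and 0, and the call was absent without Dux KD PlaB replicate 2 or PlaB replicate 2. Dab2 (0.86 ± 0.16, adjusted p 3.6e-05) and Lamb1 (0.23 ± 0.12) were not called. Lama1 moved with 7 of the 8 other basement membrane genes that rose (median 2.54, Lamc1 at 3.54 and Nid2 at 2.62), and 6 of 8 epiblast genes rose as well. Of 7 trophectoderm genes 5 fell and 1 rose (median -4.21).

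The Dux KD PlaB libraries lay close to DMSO over the whole table, with 11.7% of all tested genes called in that comparison (7.53% higher and 4.14% lower) against 58.9% for PlaB. Their two-cell genes summed to 4.89 to 5.08 CPM, against 3.02 to 5.05 CPM in DMSO and 7180 to 7246 CPM in PlaB, and whether these cells were exposed to PlaB in the same way was not tested. Of the members 4 were called against DMSO. Dab2 rose 10.5-fold (3.39 ± 0.21, edgeR adjusted p 2.3e-12), Pdgfra rose 2.98-fold (1.58 ± 0.25, adjusted p 1.6e-05) and Sox7 fell by 1.95 (SE 0.35, adjusted p 7.4e-05). Foxa2 was called on 1 and 5 counts against 0 and 0, and not when Dux KD PlaB replicate 2 or either DMSO library was left out. Gata6 was at 0.38 ± 0.27 (adjusted p 0.31), Sox17 at 1.77 ± 0.77 (adjusted p 0.078, called at 2.34 without Dux KD PlaB replicate 1), Lama1 at 0.57 ± 0.11 and Lamb1 at -0.81 ± 0.12. None of the 8 basement membrane or 8 epiblast genes was called against DMSO, and 4 of 11 visceral endoderm genes rose, with Cubn at 5.71 and the nuclear receptor Hnf4a at 3.41.

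The libraries labelled Dux KD Zscan4 OE differed from Zscan4 OE in 11.1% of all tested genes (5.78% higher and 5.35% lower) and in 1 member. Zscan4c was below its ESC level in them, so Dux knockdown and a lack of Zscan4 induction cannot be told apart in this comparison. Lamb1 fell by 1.07 (SE 0.13, edgeR adjusted p 3.5e-07), and without Dux KD Zscan4 OE replicate 2 it was at -0.82 and not called. Gata6 (-0.75 ± 0.48), Dab2 (0.43 ± 0.29) and Pdgfra (0.42 ± 0.32) were not called.

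**Figure D3:**
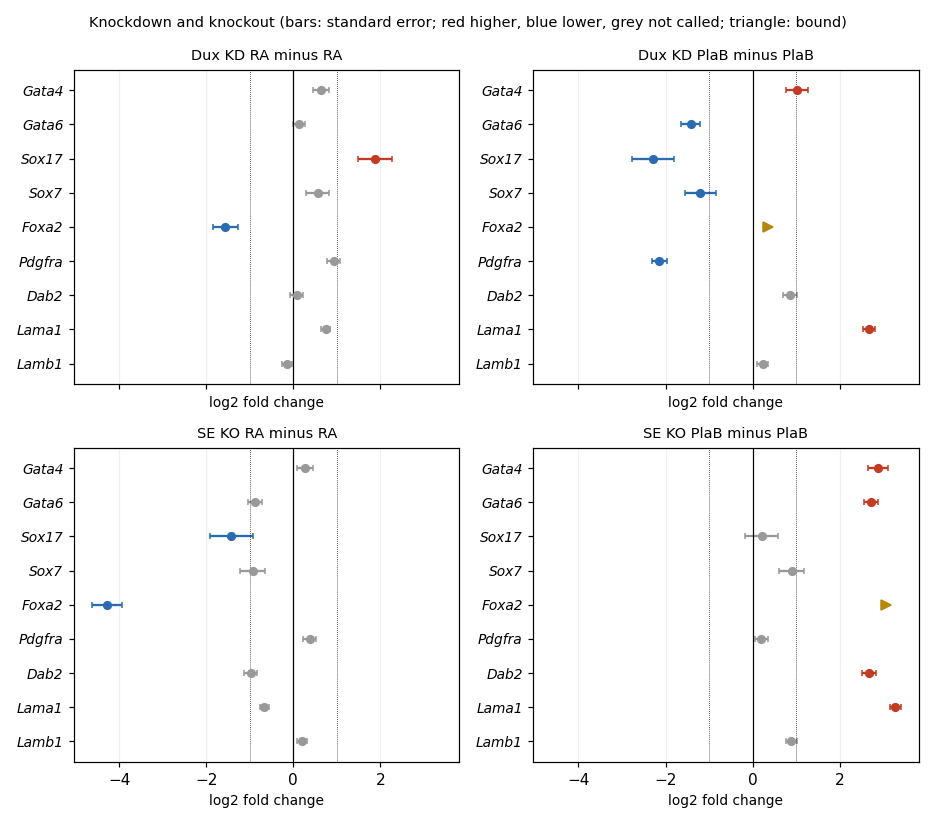
Log2 fold changes of the 9 primitive endoderm genes for Dux knockdown (upper panels) and super-enhancer knockout (lower panels) within RA (left) and PlaB (right), with bars for the standard error of the edgeR fit (2 libraries per group). Red and blue points are called higher and lower, grey points are not called, dotted lines mark a log2 fold change of 1 and -1, and triangles are lower bounds against a floor of 3 counts. Under knockout Foxa2 and Sox17 are called lower with RA, and 5 genes are called higher with PlaB.

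The SE KO cells were compared with wild-type cells under the same inducer. With RA, 17.6% of all tested genes were called (6.57% higher and 11% lower), and of the members 2 fell and none rose. Foxa2 fell by 4.28 (SE 0.35, edgeR adjusted p 9.8e-10), which is 19.4-fold, from 375 and 332 counts to 13 and 24. Sox17 fell by 1.42 (SE 0.49, adjusted p 0.020), a call that was absent without RA replicate 2 (-1.33) or without SE KO RA replicate 2 (-0.90). Dab2 (-0.98 ± 0.15), Sox7 (-0.94 ± 0.28), Gata6 (-0.88 ± 0.15) and Lama1 (-0.66 ± 0.11) were lower by less than the fold required. Of these, Sox7 was called without RA replicate 1 (-1.07), Dab2 without RA replicate 2, and both without SE KO RA replicate 2 (Dab2 at -1.17). Gata4 (0.27 ± 0.19), Pdgfra (0.38 ± 0.15) and Lamb1 (0.21 ± 0.11) had values above 0 and were not called. Without replicate 1, the library whose genotype label says WT, Foxa2 was at -3.97 and Sox17 at -2.18, both called.

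In the same SE KO RA libraries Foxa1 (-1.82) and the apolipoprotein Apob (-2.36) fell along with Foxa2, among 4 of 11 visceral endoderm genes that fell and 1 that rose. Of 5 parietal endoderm genes 2 rose, Thbd at 2.29 and Pth1r at 1.34, and 1 fell, Fst at -1.60. Of the basement membrane genes 1 of 8 fell, Col4a1 at -1.23. Epiblast genes were lower as well, 5 of 8 falling and none rising (median -1.17, against -0.04 over all genes), with Esrrb at -2.45 and Tfcp2l1 at -1.57. Markers of other cell types were higher in part. Of 7 trophectoderm genes 4 rose (Cdx2 at 2.07, Hand1 at 1.89, Krt7 at 1.30 and Krt8 at 1.20) and 1 fell, Gata3 at -1.49, with a summed level of 142 to 147 CPM in SE KO RA against 107 to 117 CPM in RA. Of 5 neural genes 2 rose, Sox1 at 1.85 and Pax6 at 1.27, and none fell (188 to 199 CPM against 144 to 153 CPM). Of 6 fibroblast genes 2 rose and 2 fell, and of 6 mesendoderm genes 1 rose. The retinoic acid response genes summed to 216 to 222 CPM in SE KO RA and 205 to 210.3 CPM in RA, and 1 of 6 rose and 1 fell. The two-cell genes summed to 51.0 to 53.8 CPM against 466 to 536 CPM. Their part in the members' levels was not tested.

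With PlaB, knockout moved 52% of all tested genes (25.9% higher and 26.1% lower), and 5 members rose and none fell. Lama1 rose 9.72-fold (log2 fold change 3.28 ± 0.13 SE, edgeR adjusted p 2.1e-18), Gata4 7.39-fold (2.89 ± 0.23, adjusted p 8.4e-12), Gata6 6.57-fold (2.72 ± 0.17, adjusted p 3.1e-14) and Dab2 6.36-fold (2.67 ± 0.16, adjusted p 1.2e-14). Foxa2 was at least 8.36-fold higher, with 22 and 30 counts against 0 and 0. Lamb1 (0.89 ± 0.12, adjusted p 1.7e-07) and Sox7 (0.90 ± 0.29, adjusted p 0.0069) were higher by less than the fold required, though Lamb1 was called without SE KO PlaB replicate 1 (1.09). Sox17 (0.21 ± 0.38) and Pdgfra (0.20 ± 0.15), the 2 members highest in PlaB relative to DMSO, were not called.

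All 8 basement membrane genes rose in SE KO PlaB (median 2.93, against -0.07 over all genes), with Lamc1 at 3.99 and Nid2 at 2.66. Of 11 visceral endoderm genes 6 rose and 3 fell, with Cubn at 3.22 and Hnf4a at 2.80. Of the 8 epiblast genes 6 rose (median 2.06, Nanog at 3.11 and Esrrb at 3.16). Of 9 FGF and MAPK genes 5 rose, while Spry2 was called lower, at -1.20. The two-cell genes summed to 479 to 579 CPM in SE KO PlaB against 7180 to 7246 CPM in PlaB. The trophectoderm genes summed to 187 to 305 CPM against 469 to 493 CPM, and 1 of them rose (Hand1 at 3.55) and 1 fell (Krt8 at -1.48). Of 6 fibroblast genes 3 rose and 1 fell, and of 5 neural genes 2 rose and 1 fell. Their part in the members' levels was not tested.

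With Dux OE, knockout moved 6.3% of all tested genes (2.46% higher and 3.84% lower) and 2 members, both higher. Dab2 rose 2.61-fold (log2 fold change 1.38 ± 0.20 SE, edgeR adjusted p 1.4e-05) and Pdgfra rose 2.43-fold (1.28 ± 0.26, adjusted p 0.00074). Sox17, at -2.30 ± 0.87 with 6 and 0 counts against 4 and 9, was not called (adjusted p 0.054) but was with DESeq2 (-2.40, adjusted p 0.017) and without SE KO Dux OE replicate 1, where Gata4 was called too (-1.20). The 2 SE KO Dux OE libraries were the deepest of the series.

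The effects of knockdown and of knockout under the 2 inducers were compared with an interaction term. For Dux knockdown 6 of the 9 members differed between PlaB and RA, with 52.2% of all tested genes called (25.5% higher and 26.6% lower). The knockdown effect was lower in PlaB than in RA for Sox17 by 4.16 (SE 0.63, edgeR adjusted p 1.6e-06), for Pdgfra by 3.07 (SE 0.23, adjusted p 5.1e-12), for Sox7 by 1.76 and for Gata6 by 1.55. It was higher in PlaB for Lama1, by 1.94 (SE 0.17, adjusted p 7.6e-11), and for Foxa2, where PlaB had no counts, the fitted value has no bound and the call was absent without Dux KD PlaB replicate 2. Sox17 thus rose with knockdown in RA and fell with it in PlaB.

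For the super-enhancer knockout 7 of the 9 members differed, all in the direction of a higher effect in PlaB, with 49% of all tested genes called (28.3% higher and 20.7% lower). The difference was 3.94 for Lama1 (SE 0.17, edgeR adjusted p 3e-17), 3.65 for Dab2 (SE 0.21, adjusted p 2.4e-14) and 3.60 for Gata6 (SE 0.22, adjusted p 8.2e-14). It was 2.62 for Gata4 (SE 0.30), 1.84 for Sox7 (SE 0.40) and 1.64 for Sox17 (SE 0.62, adjusted p 0.024), and the last was not called without PlaB replicate 2, RA replicate 2 or SE KO RA replicate 2. Foxa2 differed too, again on 0 counts in PlaB. Pdgfra (-0.18 ± 0.21) and Lamb1 (0.69 ± 0.16) were not called.

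**Figure D4:**
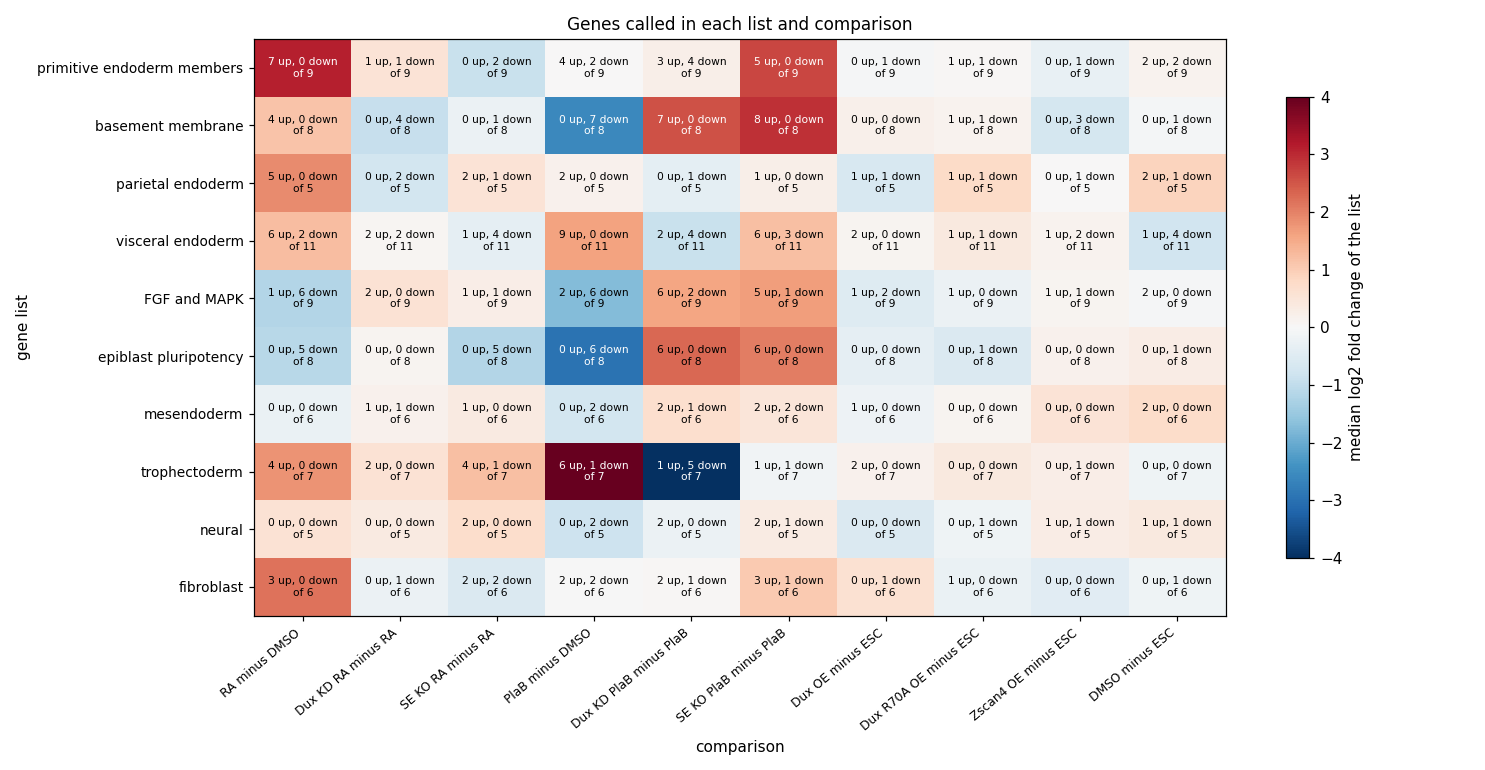
Median log2 fold change (colour) and number of genes called up and down of those tested (text) for the 9 primitive endoderm genes and 9 other gene lists in 10 comparisons. The members have 7 up and 0 down in RA against DMSO, and the basement membrane list has 0 up and 7 down in PlaB against DMSO and 8 up and 0 down in SE KO PlaB against PlaB.

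The 9 profiles were also compared with each other over the 13 group means of log2 CPM, as a description, since groups share lines, compounds and depth. Over the 36 pairs the median Pearson r was 0.700, and 8 pairs were above 0.8. Gata6 was in 5 of these 8 pairs, and its r was 0.917 with Pdgfra, 0.900 with Gata4 and 0.895 with Dab2. Sox17 and Lama1 had the lowest r, 0.0244. The lowest group mean of Lama1 was that of PlaB, 8.24 CPM.

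Among 12667 other genes, those most like the mean profile of the 9 members over the 13 groups were the nuclear receptor corepressor Nrip1 (r 0.955), Cyp11a1 (0.931), the enzyme that begins steroid synthesis, 2510009E07Rik (0.929), the guanine nucleotide exchange factor Dock10 (0.923) and the junctional protein Jam3 (0.918). Jam3 (0.964) and Tinagl1 (0.931) were most like Gata6, and Brdt (0.972) and Ip6k2 (0.965) most like Pdgfra. Foxa2 was most like Pmepa1 (0.928) and Dock10 (0.927), Gata4 like 2510009E07Rik (0.941) and Mxd4 (0.923), and Sox17 like Foxo3 (0.923) and Grip1 (0.892). Sox7 was most like the activin receptor Acvr2a (0.893) and Chrnb1 (0.846), Dab2 like Dock10 (0.900) and Ip6k2 (0.891), Lama1 like Rapgef2 (0.960) and Sptbn1 (0.933), and Lamb1 like Cpeb1 (0.958) and Abca3 (0.930).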

How the data were processed

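Poly(A) RNA of 26 libraries was sequenced. The authors deposited a table of raw counts per gene for 55291 genes, not normalized, with exon coordinates and lengths. The submitters' processing notes name FastQC, Trimmomatic, STAR, featureCounts, DESeq2 and mm10, and versions, strand setting and treatment of multi-mapping reads are not given in the sources used here. Reads of a gene and of an overlapping or antisense gene cannot be told apart. The start and end of all 9 genes are the same in GENCODE M21 (GRCm38).

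Groups were taken from the sample labels, and all columns were used. A single edgeR 4.0.16 model (R 4.3.3) was fitted to all 26 libraries after filterByExpr with TMM scaling, quasi-likelihood F-tests and Benjamini-Hochberg adjustment over the 20953 tested genes. A call needed both an adjusted p below 0.05 and a change of 1 or more on the log2 scale in either direction (prior count 0.125). Of the comparisons, 15 were between groups and 2 were interactions. Replicates differed by more than sampling noise in every group (chi-square per degree of freedom 1.55 to 30.2). This ratio was highest in SE KO PlaB (30.2) and Dux KD Zscan4 OE (26.1), followed by SE KO Dux OE (9.81). Pearson's r between replicates was 0.986 in SE KO PlaB and lowest, at 0.983, in Dux KD Zscan4 OE. The common biological coefficient of variation was 0.0833. Similarity was Pearson's r of group mean log2 CPM (prior count 2). In counts simulated for RA against DMSO over 20953 genes, 100% of 200 genes changed by a log2 fold of 2 were recovered with 3 false calls. For the interaction of Dux knockdown with PlaB or RA, 93% of 200 such genes were recovered with 7 false calls. The changed genes were drawn from those with a mean of at least 1 CPM, and all genes had a single dispersion. Recovery of genes near the floor in a compared group, such as Foxa2 and Sox17 in DMSO, was thus not measured.

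The 9 genes and the gene lists were chosen with earlier results of these data known. A gene of the retinoic acid response list is not reported here, and the list's values were computed without it. Named beside the members were, in most cases, up to 2 called genes per list and comparison with the smallest adjusted p. In some lists further genes were named, for their level, for a call in the other direction or to name all called genes. The genes most similar to the mean profile (5) and to each member (2) were named too. Alternatives were RLE or library-size scaling, no low-count filter, a fit of the compared groups only, DESeq2 1.42.0, the other control, a replicate block and leaving out each library. Library totals of 14401452 to 39402840 counts set the precision. RefSeq promoter windows were trimmed to the 250 bases before each start.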

Additional observations from a re-analysis of the deposited data

Results flagged for a closer look

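The effect of Dux knockdown differed between PlaB and RA for 6 of the 9 primitive endoderm genes by an interaction term in edgeR. In this interaction 52.2% of all tested genes were called. On the log2 scale, as the PlaB effect minus the RA effect, the difference was -1.55 for Gata6, -4.16 for Sox17, -1.76 for Sox7, -3.07 for Pdgfra, 1.94 for Lama1 and 6.41 for Foxa2. The effect of the super-enhancer knockout differed in the same way for 7 genes, by 2.62 for Gata4, 3.60 for Gata6, 1.64 for Sox17, 1.84 for Sox7, 11.80 for Foxa2, 3.65 for Dab2 and 3.94 for Lama1. In the knockout interaction 49% of all tested genes were called, so calls were common among all genes in both interactions. The values of Foxa2 rest on PlaB libraries with 0 counts and depend on the prior count. The Dux KD PlaB libraries had 11.7% of all genes called against DMSO, while PlaB had 58.9%, and its part in the differences was not tested.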

How the results depend on the processing

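Of 183 recomputed counts of called members 165 stayed within 1.5 times the reported count. The others were in comparisons with at most 2 called members. In Dux OE against ESC the count was 0 with DESeq2, 3 with DMSO as control and 0 to 2 when single libraries were left out. In Dux R70A OE against ESC it was 1 in a fit of these groups alone, 4 with DMSO as control and 1 to 2 without single libraries. In Zscan4 OE against ESC it was 0 with library sizes alone, 2 with DMSO as control and 1 to 2 without single libraries. Leaving out single libraries gave 1 to 3 in Dux R70A OE against Dux OE, 0 to 1 in Dux KD Zscan4 OE, and 2 to 4 in SE KO Dux OE. Of 1627 recomputed fold changes of single members 1544 kept their side of the call, 40 lost a call, 36 gained one and 7 changed sign with an adjusted p under 0.05 in either fit, and 43 values counted among the others changed sign with neither fit under 0.05. All 7 came from the choice between DMSO and ESC as control. With ESC, Sox7 was at 0.98 and Lamb1 at 0.033 in PlaB. With DMSO, Lama1 was at 0.90 and Lamb1 at -0.51 in Dux OE, Sox7 at -1.61 and Lamb1 at -0.64 in Dux R70A OE, and Lamb1 at -0.76 in Zscan4 OE. Same-numbered replicates did not deviate together (r between -0.0473 and 0.0237), so they share only a number, and a replicate block changed 0 calls of members (7 called with the block in RA against DMSO). The RLE and library-size scalings moved the median of all genes in PlaB against DMSO by 0.15 and 0.26, and the library-size scaling by -0.20 in Dux KD PlaB against PlaB. Depth limits Foxa2, Sox17 and Sox7, which had few counts in many groups.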
